A study of Homo sapiens with 4 samples.

Results

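Glucose enters a cell through facilitative transporters of the SLC2A (GLUT) family and is kept there by hexokinases, which add a phosphate to it. The genes described here are 9 glucose entry genes given by name, 6 transporters (SLC2A1, SLC2A3, SLC2A6, SLC2A8, SLC2A10 and SLC2A12) and 3 hexokinases (HK1, HK2 and HKDC1). They were found by gene symbol in a table of 28729 genes, and 7 of the 9 had a row, 4 transporters and 3 hexokinases. SLC2A10 and SLC2A12 were not analysed here. RNA-seq was done on 4 libraries from TU-177, a cell line of laryngeal squamous cell carcinoma (LSCC). In 2 libraries (SKA3-KD) the cells carried a lentiviral shRNA against SKA3, a subunit of the spindle and kinetochore associated complex that holds chromosomes to spindle microtubules, and in 2 (NC) a negative control shRNA. All 4 came from puromycin-resistant cells, with the drug added 48 h after transduction, and the labels give neither the shRNA sequence nor whether the libraries of a group came from separate cultures. The p-values below therefore measure only the spread between these libraries, which may be technical. The question was whether the genes of glucose entry differed in level after SKA3 knockdown.

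GLUT1, the product of SLC2A1, is the broadly used transporter of the plasma membrane, and GLUT3, the product of SLC2A3, has a high affinity for glucose and is best known from neurons. GLUT6 and GLUT8, the products of SLC2A6 and SLC2A8, are held mainly on membranes inside the cell. HK1 and HK2 both bind the outer mitochondrial membrane. HK1 is made in most tissues, while HK2 is best known from muscle and fat and from many tumours, and HKDC1 is a further member of the family with hexokinase activity. SLC2A1 and HK2 are classical targets of the hypoxia-inducible factors and of MYC, whose binding cores lie among the motifs looked for in the next paragraph.

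Promoter windows are shown for the genes with the widest spread between libraries (HK2 and SLC2A1), for the gene with the smallest p-value (SLC2A8) and for the transporter with the smallest difference (SLC2A6). Each is the 250 bases before a RefSeq transcription start (GRCh38.p14), 5′ to 3′ on the strand of the gene. Capitals mark ACGTG or GCGTG, the core of the hypoxia response element, on either strand, and CACGTG, the E-box bound by MYC, whose ACGTG is counted on each strand.
HK2, first start, chr2:74833877-74834126, plus strand: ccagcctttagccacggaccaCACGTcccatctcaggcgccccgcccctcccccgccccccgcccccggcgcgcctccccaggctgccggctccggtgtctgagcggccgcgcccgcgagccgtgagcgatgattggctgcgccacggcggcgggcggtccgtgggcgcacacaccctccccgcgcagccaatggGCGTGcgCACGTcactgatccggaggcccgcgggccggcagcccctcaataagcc
HK2, second start, chr2:74834920-74835169, plus strand: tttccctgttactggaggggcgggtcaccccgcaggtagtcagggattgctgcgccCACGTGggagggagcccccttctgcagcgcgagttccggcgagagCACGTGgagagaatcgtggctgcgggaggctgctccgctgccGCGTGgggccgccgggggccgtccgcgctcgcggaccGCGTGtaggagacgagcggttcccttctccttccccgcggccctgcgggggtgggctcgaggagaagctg
SLC2A1, chr1:42958869-42959118, minus strand: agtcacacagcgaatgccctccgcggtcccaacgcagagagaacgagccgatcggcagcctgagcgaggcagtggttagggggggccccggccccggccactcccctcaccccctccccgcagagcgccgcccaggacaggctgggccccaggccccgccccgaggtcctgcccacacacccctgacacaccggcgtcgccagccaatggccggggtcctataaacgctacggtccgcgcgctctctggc
SLC2A8, chr9:127396919-127397168, plus strand: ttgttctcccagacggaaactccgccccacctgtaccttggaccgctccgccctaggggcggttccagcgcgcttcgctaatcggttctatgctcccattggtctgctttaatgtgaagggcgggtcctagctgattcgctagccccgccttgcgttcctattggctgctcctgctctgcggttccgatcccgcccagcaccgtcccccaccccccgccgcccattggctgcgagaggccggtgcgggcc
SLC2A6, chr9:133479100-133479349, minus strand: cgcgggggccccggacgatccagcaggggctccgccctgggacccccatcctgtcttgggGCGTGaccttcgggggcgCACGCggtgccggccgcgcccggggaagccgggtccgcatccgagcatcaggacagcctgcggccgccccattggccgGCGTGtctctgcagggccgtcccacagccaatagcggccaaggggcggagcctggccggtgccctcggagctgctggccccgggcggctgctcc

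The first HK2 window held 3 cores and no E-box, and the second held 6 core matches and 2 E-boxes, which overlap some of them. The SLC2A6 window held 3 cores, and those of SLC2A1 and SLC2A8 held 0. A core was present in 43.1% of all 34788 promoter windows of this length and an E-box in 6.31%. The GC box GGGCGG, searched on both strands and not capitalised, was present in 42.6% of the windows, with 6 matches for SLC2A8, 4 for SLC2A6, 2 for SLC2A1, and 4 and 1 at the starts of HK2. Of the 13 starts listed for 6 measured members, 7 belonged to HK1, and 1 of those held a core. The HKDC1 window held none of the 3 motifs. A match describes letters in a window and is not a measured binding site.

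SKA3 (ENSG00000165480, chr13:21153595-21176602, minus strand) was at 9.40 and 9.64 FPKM (fragments scaled to gene length and library size) in NC 1 and NC 2, and at 3.77 and 4.12 FPKM in SKA3-KD 1 and SKA3-KD 2. Its log2 fold change of SKA3-KD against NC was -1.09 (SE 0.07, limma adjusted p = 0.00806), so the targeted gene followed the labels. In bulk RNA, fewer cells of a kind and less RNA per cell cannot be told apart. Without NC 1 or NC 2 the SKA3 log2 fold change was -1.11 or -1.07 and missed the threshold, in fits that kept 1 NC library. The libraries rested on 9015053 to 11966134 reads. Of 12 squamous epithelial markers measured, 6 were under 1 FPKM in every library, among them KRT5, KRT14, KRT6A, TP63 and CDH1, while KRT8 was at 430 to 453 FPKM and made up most of the list's sum of 713 to 749 FPKM. Within that list KRT17 fell (45.6 and 49.1 FPKM in NC, 29.4 and 35.7 FPKM after knockdown, log2 fold change -0.53, limma adjusted p = 0.0396) and KRT18 rose (31.1 and 31.5 FPKM, then 39.2 and 38.5 FPKM, log2 fold change 0.30, limma adjusted p = 0.0332). The 6 fibroblast markers summed to 15.4 and 15.8 FPKM in NC and to 8.86 and 9.56 FPKM in SKA3-KD. Most of that gap was DCN, which fell from 8.4 and 8.36 to 2.48 and 2.35 FPKM (log2 fold change -1.46, limma adjusted p = 0.0065), while PDGFRB lay the other way (2.88 and 2.46 FPKM in NC, 3.19 and 4.13 FPKM after knockdown, log2 fold change 0.34, limma adjusted p = 0.165), and COL1A2 and LUM were at or near 0. None of the leukocyte or endothelial markers measured reached a mean of 1 FPKM. The part of the marker changes in the results below was not tested.

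None of the 7 measured members passed an adjusted p of 0.05 in limma on log2(FPKM + 1), where 12.3% of the 12645 genes tested did. At an unadjusted p under 0.05 there was 1 member (SLC2A8), against 31.3% of all genes, and a test on reads recovered from the FPKM values called 2 (HK2 lower, SLC2A8 higher), against 25.3%. The log2 fold change was below 0 for 4 members and above 0 for 3, with a median of -0.02 against 0.01 over all genes tested. The groups did not overlap for 3 members, HK2 lower and SLC2A8 and HKDC1 higher in SKA3-KD, and such separation was seen in 61.6% of all genes, 29.2% lower and 32.3% higher. With 2 libraries against 2, an exact permutation test of a single gene cannot go below p = 0.33.

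**Figure D1:**
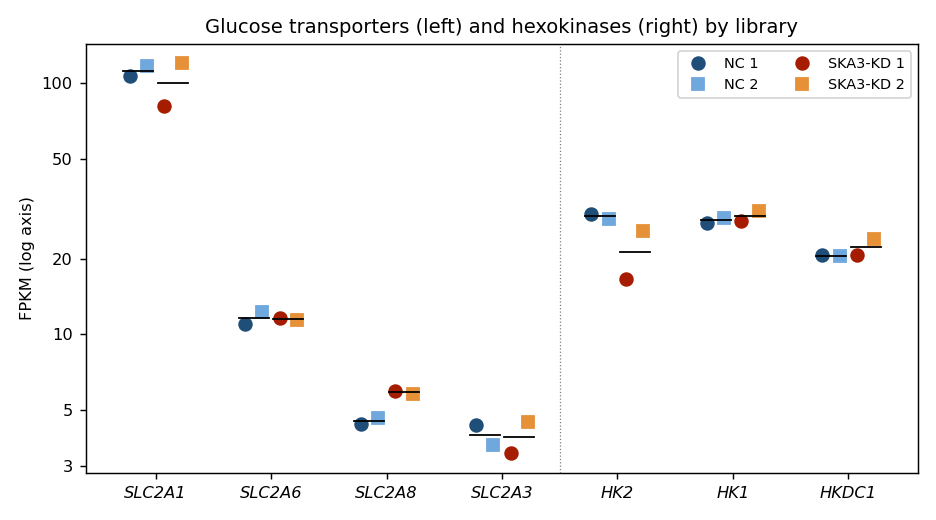
FPKM of the 7 measured genes on a log axis, one point per library, with a bar at each group mean. SLC2A1 and HK2 sit apart in the SKA3-KD libraries (80.8 and 119 FPKM for SLC2A1, 16.6 and 25.8 FPKM for HK2), whereas SLC2A8 has close values within each group.

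SLC2A1 (ENSG00000117394, chr1:42925375-42959176, minus strand) was at 106 and 117 FPKM in NC and at 80.8 and 119 FPKM in SKA3-KD. SKA3-KD 1 was the lowest library and SKA3-KD 2 the highest, so the groups overlapped. The means were 111 ± 7.61 and 100.1 ± 27.3 FPKM (SD, n = 2 each). The log2 fold change was -0.18 (SE 0.19, 95% interval -0.66 to 0.30, limma adjusted p = 0.566). It was 0.10 without SKA3-KD 1, so its direction rested on that library. Counting error is small beside this gap, since SKA3-KD 2 was 1.48 times SKA3-KD 1 (95% exact interval 1.42 to 1.54, from 3461 and 5929 reads), while NC 2 was 1.10 times NC 1. These intervals cover counting error only.

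SLC2A3 (ENSG00000059804, chr12:7919230-7936275, minus strand) was at 4.38 and 3.62 FPKM in NC and at 3.37 and 4.47 FPKM in SKA3-KD. The lowest and the highest library were again SKA3-KD 1 and SKA3-KD 2. SKA3-KD minus NC was -0.03 on the log2 scale (SE 0.15, 95% interval -0.40 to 0.35, limma adjusted p = 0.917), and it was above 0 without NC 1 (0.08) or without SKA3-KD 1 (0.13). Of its 50-base stretches, 15.3% also occur in SLC2A14, a near copy with 0 to 5 reads a library, so the SLC2A3 level depends on how shared reads were counted.

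SLC2A6 (ENSG00000160326, chr9:133471095-133479137, minus strand) had the narrowest difference among the members, with 11.0 and 12.3 FPKM in NC and 11.7 and 11.4 FPKM in SKA3-KD. Both SKA3-KD values lay between the NC values. SKA3-KD minus NC was -0.02 on the log2 scale (SE 0.08, 95% interval -0.21 to 0.18, limma adjusted p = 0.913), and leaving out NC 2 or SKA3-KD 2 moved it above 0 (0.055 and 0.000734).

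SLC2A8 (ENSG00000136856, chr9:127397138-127408424, plus strand) was at 4.41 and 4.64 FPKM in NC and at 5.96 and 5.81 FPKM in SKA3-KD, so both SKA3-KD libraries lay above both NC libraries. The means were 4.52 ± 0.161 and 5.89 ± 0.104 FPKM (SD, n = 2 each). The log2 fold change was 0.32 (SE 0.07, 95% interval 0.13 to 0.51), and its limma adjusted p of 0.0537 missed the threshold. It passed on recovered reads with voom (adjusted p = 0.0363) and in the limma fit restricted to genes with a mean of at least 5 FPKM (adjusted p = 0.0401). In that restricted fit 887 genes were lower and 993 higher past the threshold, of 7303 tested. The NC mean of SLC2A8 was under that filter, so the gene entered the restricted fit only through its SKA3-KD values. That pass is therefore not separate support. The gene rested on 164 to 269 reads a library.

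**Figure D2:**
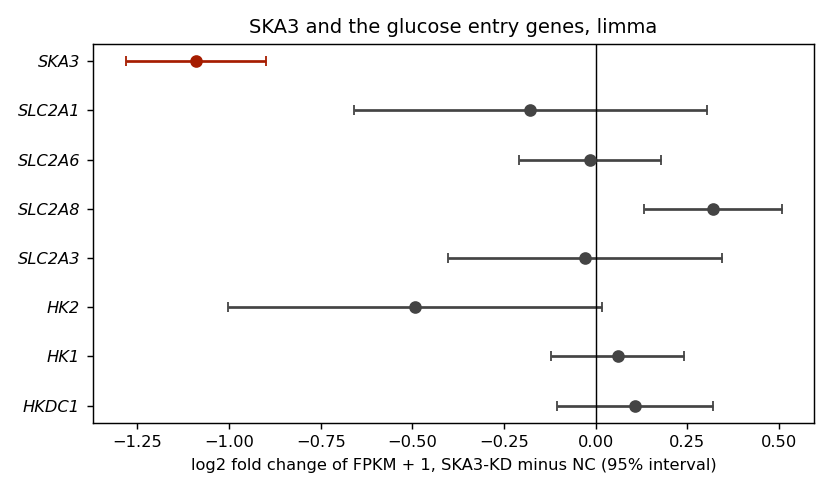
Log2 fold change of SKA3-KD against NC for SKA3 (red) and the 7 measured genes, on the log2(FPKM + 1) scale, with 95% intervals from limma. The interval of SLC2A8 (0.13 to 0.51) lies above 0, that of HK2 (-1.0 to 0.02) reaches just past 0, and the others span 0.

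HK2 (ENSG00000159399, chr2:74833981-74893359, plus strand) was at 30.2 and 28.9 FPKM in NC and at 16.6 and 25.8 FPKM in SKA3-KD. Both SKA3-KD values were under both NC values, but SKA3-KD 1 was at 0.562 times the NC mean and SKA3-KD 2 at 0.873 times. The means were 29.5 ± 0.917 and 21.2 ± 6.49 FPKM (SD, n = 2 each). The log2 fold change was -0.49 (SE 0.20, 95% interval -1.0 to 0.02), with a limma adjusted p of 0.17. Without SKA3-KD 2 it was -0.80 and without SKA3-KD 1 it was -0.19, so its size depended on which knockdown library was kept. Voom on recovered reads gave -0.52 (adjusted p = 0.00533). SKA3-KD 2 was 1.55 times SKA3-KD 1 (95% exact interval 1.44 to 1.68), a gap beyond counting error. Of the 50-base stretches of HK2, 8.16% occur in its pseudogene HK2P1, which had 0 or 1 read a library.

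HK1 (ENSG00000156515, chr10:69269984-69401884, plus strand) was at 27.9 and 29 FPKM in NC and at 28.3 and 31.1 FPKM in SKA3-KD, and the groups overlapped. Its log2 fold change was 0.06 (SE 0.07, 95% interval -0.12 to 0.24, limma adjusted p = 0.61), and -0.01 without SKA3-KD 2.

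HKDC1 (ENSG00000156510, chr10:69220303-69267559, plus strand) ends 2424 bases before HK1 on the same strand. It was at 20.6 FPKM in both NC libraries and at 20.7 and 23.9 FPKM in SKA3-KD. SKA3-KD 1 thus lay next to the NC libraries and SKA3-KD 2 above them. The log2 fold change was 0.11 (SE 0.08, 95% interval -0.11 to 0.32, limma adjusted p = 0.438).

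FPKM is a level per gene length, so the members can be ordered by it. In NC the order was SLC2A1, HK2, HK1, HKDC1, SLC2A6, SLC2A8 and SLC2A3, and only the ranges of HK2 and HK1 overlapped between neighbours. In SKA3-KD it was SLC2A1, HK1, HKDC1, HK2, SLC2A6, SLC2A8 and SLC2A3, with overlap between HKDC1 and HK2. SLC2A8 and SLC2A3 were at 4.41 and 4.38 FPKM in NC 1. Their 95% counting intervals overlapped there (3.83 to 5.05 and 3.92 to 4.89 FPKM), so their order in that library is not beyond counting error. Each of the 7 measured members was expressed, from SLC2A3 at the 35.3 percentile of the genes tested to SLC2A1 at the 97.3 percentile.

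The FPKM of HK1, HK2 and HKDC1 summed to 78.7 and 78.5 in NC and to 65.6 and 80.7 in SKA3-KD. HK2 was 38.4% and 36.8% of it in NC and 25.3% and 31.9% in SKA3-KD. HK1 was 35.4% and 37.0% in NC and 43.1% and 38.5% in SKA3-KD. HKDC1 was 26.2% in both NC libraries and 31.6% and 29.6% in SKA3-KD. None of these shares overlapped between the groups, but the FPKM of 61.6% of all genes tested did not overlap either, and the FPKM of HK1 did. As parts of one sum the shares are not independent: a lower HK2 share raises the others. The log2 ratio of HK2 to HK1 was 0.12 and -0.01 in NC and -0.77 and -0.27 in SKA3-KD. The difference of -0.58 had an exact two-sided permutation p of 0.33, the smallest this design can give.

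**Figure D3:**
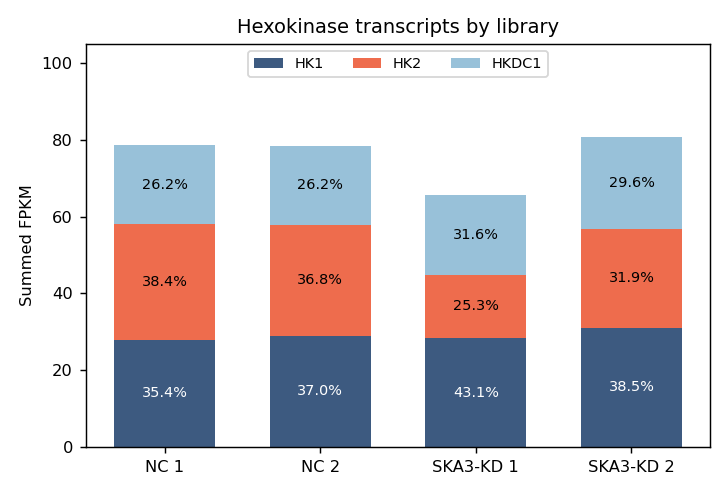
Summed FPKM of HK1, HK2 and HKDC1 in each library as stacked bars from 0, with the share of each gene printed in its segment. HK2 takes 38.4% and 36.8% in NC and 25.3% and 31.9% in SKA3-KD.

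Of the 11 SLC2A genes measured, SLC2A1 took 79.2% and 81.0% of the summed FPKM in NC and 76.0% and 81.7% in SKA3-KD. SLC2A6 followed with 8.25% and 8.51% in the NC libraries, and with 11.0% and 7.78% after knockdown. The 6 SLC2A genes that are neither members nor SLC2A13 stayed under 0.887 FPKM in every library. The log2 ratio of SLC2A1 to SLC2A3 was 4.60 and 5.01 in NC and 4.59 and 4.74 in SKA3-KD, a difference of -0.14 (exact two-sided permutation p = 0.667). SLC2A1-AS1, an antisense transcript of SLC2A1, was at 1.02 to 1.68 FPKM, and whether counting used strand is not given in the sources used here.

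Likeness to HK2 and SLC2A1 was measured as the Euclidean distance over the 4 libraries between log2(FPKM + 1) values centred on each gene's mean, among 7302 other genes with a mean of at least 5 FPKM. Nearest to HK2 were LINC01186 (distance 0.0465), EFNA1 (0.117), an ephrin ligand, STC2 (0.157), a secreted glycoprotein, the pseudogene AC009244.1 (0.159) and MIR210HG (0.170), the host transcript of miR-210. LINC01186 was at 13.6 and 12.6 FPKM in NC and at 6.91 and 11.4 FPKM in SKA3-KD, the same order of libraries as HK2. Nearest to SLC2A1 were the pseudogene PTMAP2 (0.0602), ERRFI1 (0.0696), an inhibitor of the EGF receptor, LOXL2 (0.0752), a lysyl oxidase, NUDT8 (0.0761) and AC131009.1 (0.0794). SLC2A1 ranked 93 among the neighbours of HK2, and HK2 ranked 495 among those of SLC2A1. With 4 libraries these distances describe a pattern and carry no test.

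**Figure D4:**
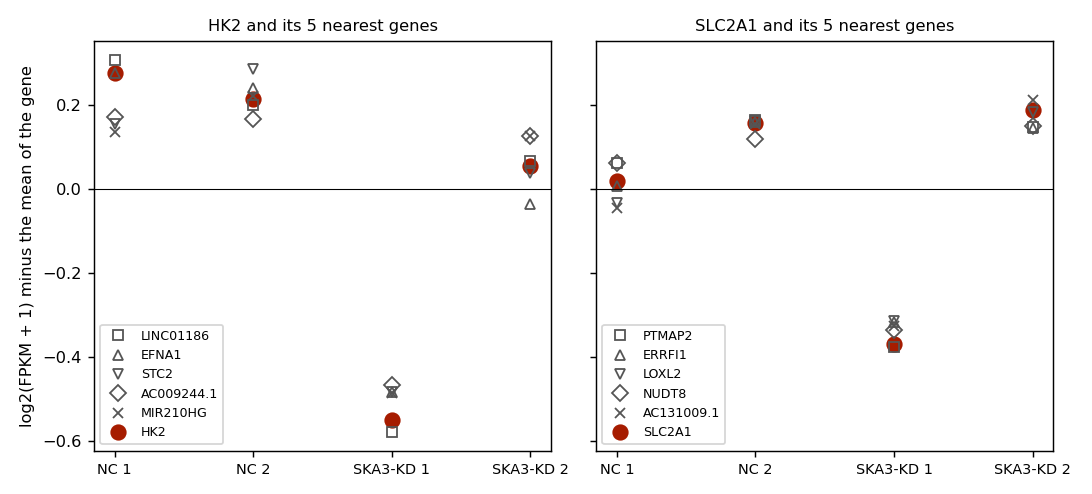
Centred log2(FPKM + 1) over the 4 libraries for HK2 and SLC2A1, each as a red point with its 5 nearest genes as open or crossed marks. Both sets are lowest in SKA3-KD 1, and in SKA3-KD 2 SLC2A1 is at 119 FPKM, above both NC libraries, while HK2 is at 25.8 FPKM, under both.

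Other genes of glucose handling were taken from 4 lists of 58 genes, of which 52 had a row and 40 were tested. Of these, 7 fell (6.11% of all genes did) and 2 rose (6.16% did). With a library left out, a group kept only 1 library, and calls fell over all genes as well as over the list genes. Those fits therefore do not single out the list genes. Among other sugar transporters, 1 of 2 tested fell. It was SLC2A13, the proton-coupled transporter of myo-inositol, with 6.13 and 5.30 FPKM in NC and 2.84 and 2.99 FPKM in SKA3-KD (log2 fold change -0.78, SE 0.10, limma adjusted p = 0.0166). Among other glucose kinases and glucose-6-phosphatases, 0 of 4 tested passed in limma, and ADPGK, an ADP-dependent glucose kinase, had the largest value (0.29, adjusted p = 0.0574).

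Of 12 genes that use glucose or glucose-6-phosphate, 4 fell and 0 rose, where 6.11% of all genes tested fell and 6.16% rose. The median log2 fold change of the list was -0.24 against 0.01 over all genes tested. The list was chosen with earlier results of these data known. GFPT1, which starts the hexosamine pathway, was at 16.5 and 16.1 FPKM in NC and at 8.72 and 8.35 FPKM in SKA3-KD (log2 fold change -0.86, SE 0.06, limma adjusted p = 0.00837). Its relative GFPT2 fell by 0.39 on the log2 scale. PGM2L1, which makes glucose-1,6-bisphosphate, fell by 0.77, and AKR1B1, the aldose reductase that turns glucose into sorbitol, fell by 0.36. GPI, the enzyme after hexokinase in glycolysis, was at 91.5 and 100.1 FPKM in NC and at 76.6 and 92.2 FPKM in SKA3-KD (limma adjusted p = 0.294).

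Of 22 regulators of glucose uptake and hexokinase docking, 2 fell and 2 rose, where 6.11% of all genes tested fell and 6.16% rose. STOM, a membrane protein that binds GLUT1, fell by 0.40 on the log2 scale, and RAB10, a GTPase of GLUT4 vesicle traffic, fell by 0.37. GIPC1, an adaptor that binds GLUT1, rose by 0.37 on that scale. AKT1 (0.25, adjusted p = 0.0894) and AKT2 (-0.27, adjusted p = 0.0749) did not pass. VDAC1 and VDAC2, the mitochondrial channels to which hexokinases dock, differed by -0.03 and -0.12 on the log2 scale (adjusted p = 0.773 and 0.27). TXNIP was not analysed here.

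**Figure D5:**
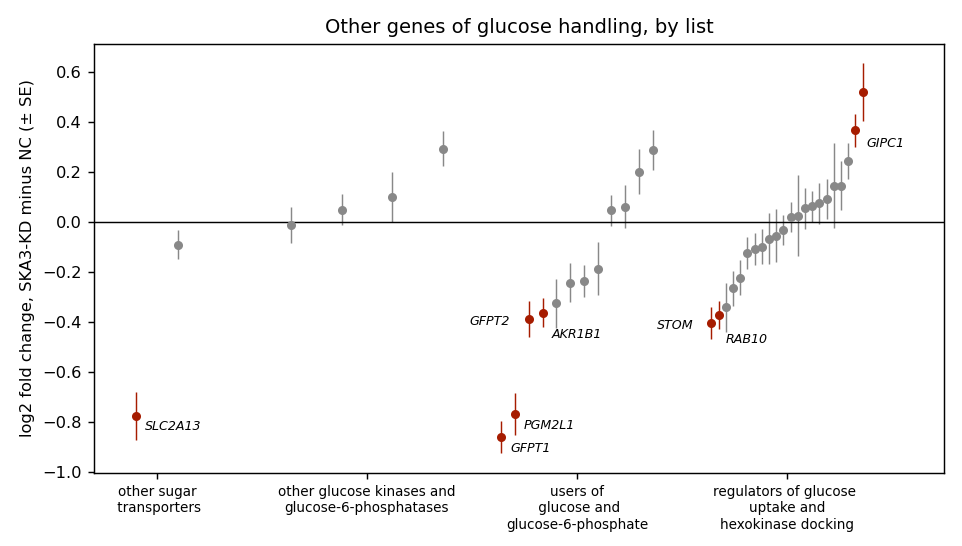
Log2 fold change of SKA3-KD against NC with SE (bars) for the 40 tested genes of the 4 lists, ordered within each list, with red points past an adjusted p of 0.05 and names for those described in the text. The 7 red points below 0 include 4 of the 12 users of glucose and glucose-6-phosphate, with GFPT1 lowest at -0.86. Over all genes tested, 6.11% were lower and 6.16% higher past that threshold.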

How the data were processed

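Total RNA of 4 TU-177 libraries, extracted with Trizol, was sequenced on an Illumina HiSeq instrument, and FPKM is the unit that the authors deposited for each gene. The submitters' processing notes name HISAT2, Bowtie2 2.2.8, StringTie 1.3.1, Cuffdiff 2.1.1 and hg19, without roles; the annotation is not given in the sources used here. Symbols and coordinates are from GENCODE 29 (GRCh38), matched by Ensembl identifier for 27199 of 28729 genes, and promoters from RefSeq (GRCh38.p14), 6 of 7 measured members matched.

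Groups came from the sample labels. SKA3-KD was compared with NC by limma 3.58.1 (R 4.3.3; lmFit, eBayes with a trend) on log2(FPKM + 1), which understates changes of low genes, over 12645 genes with a mean of at least 1 FPKM, with Benjamini-Hochberg adjustment and a threshold of 0.05. Whole reads were recovered from the FPKM steps for 99.96% of genes tested (within 0.02 read), with library sizes of 9015053 to 11966134. The annotated length gave whole reads for 61.4% of genes tested, and most others needed a length chosen to give them. HK1, HKDC1, SLC2A1 and SLC2A8 were among the latter. The recovered reads gave counting intervals (exact) and a voom alternative. The scripts were tested on simulated data.

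Members and lists were chosen with earlier results of these data known, and the promoter windows and motifs after values were seen. Named were SKA3, the members, preset list genes, list genes past the threshold, the largest change of each list and the 5 nearest genes to HK2 and to SLC2A1, and some genes under this rule are not reported here. Chi-square per degree of freedom between replicates was 4.03 (NC) and 3.95 (SKA3-KD), so replicates differed beyond sampling noise. Alternatives were another pseudocount, no or a stricter filter, other scalings, no trend, robust eBayes, the replicate block, voom and each library left out.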

Additional observations from a re-analysis of the deposited data

How the results depend on the processing

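Across 13 alternatives (12 for SLC2A3, which has no value at a mean of at least 5 FPKM), HK1, HKDC1, SLC2A1, SLC2A3 and SLC2A6 never passed the threshold. HK2 was lower in all 13 and passed in 2, voom (-0.52) and without SKA3-KD 2, a fit that kept only the lower knockdown library. Leaving out each library in turn gave -0.80 to -0.19. SLC2A8 was higher in all 13 and passed in 2, with a mean of at least 5 FPKM (0.32) and with voom (0.37). It cleared the filter of 5 FPKM only through its SKA3-KD values. Members past the threshold, 0 lower and 0 higher, were 1 higher with the stricter filter, 1 lower and 1 higher with voom, and 0 to 1 lower and 0 higher with a library left out. The sign turned for SLC2A1 without SKA3-KD 1 (0.10; range -0.46 to 0.10), SLC2A3 without NC 1 (0.08) or SKA3-KD 1 (0.13; range -0.19 to 0.13), SLC2A6 without NC 2 (0.055; range -0.086 to 0.055) or SKA3-KD 2 (0.000734) and HK1 without SKA3-KD 2 (-0.00513; range -0.00513 to 0.13). With each library left out, SKA3 ranged from -1.14 to -1.04 and missed the threshold without NC 1 (-1.11) and NC 2 (-1.07).

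Counts over all genes, 772 lower and 779 higher, became 81 and 48 without a filter, 381 and 312 without a trend, 1621 and 1581 with voom, and 0 to 135 and 0 to 46 with a library left out. The 7 lower and 2 higher list genes became 1 and 0 without a filter, 3 and 1 without a trend, 12 and 5 with voom, and 0 to 1 and 0 with a library left out; median-of-ratios scaling left 1 higher. The causes were not tested. Whether same-numbered libraries were made together is not given in the labels (correlation of deviations 0.0973). With the replicate block, 965 genes were lower and 1002 higher. HK2 then had a limma adjusted p of 0.154, 1 list gene was higher, and no member passed. Where an arm kept 1 library, it was assumed to vary like the other group.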
